A study of Arabidopsis thaliana with 7 samples.

Results

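A set of 40 nuclear genes had low signal in wild-type Arabidopsis thaliana embryos and clear signal in embryos mutant for BODENLOS (bdl). The genes were chosen by their own levels: the mean log2 intensity had to be at least 5.5 over the bdl arrays and at most 3.5 over the wild-type arrays. Of 27826 probe sets, 27720 of them of nuclear loci, 46 met both thresholds. A list of 13 loci was left out by name, 6 of which met the thresholds, which leaves 40. The difference between genotypes in these 40 genes is therefore what defined them, and it is given as a description. Calls of the fit over all genes are counted for them only beside the share of all genes called.

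RNA came from isolated 8-cell embryos, about 40 to 50 for each array. The compared groups were bdl mutant embryos (3 arrays, the IAA12 mutant in the Columbia ecotype) and wild-type embryos (4 arrays, Col-0). The design text speaks of 3 replicates of each genotype, and all 4 labelled wild-type arrays were used. The labels name neither the allele nor the zygosity of the mutant embryos, and they do not say whether replicates came from separate harvests. If they did not, the spread behind each p-value may be technical, since it is that between these arrays alone. Embryos were pooled, so more cells of a type and more RNA per cell cannot be told apart.

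BODENLOS is IAA12, a member of the Aux/IAA family of auxin response repressors. These proteins bind auxin response factors and hold their target genes low until auxin triggers their breakdown, and bdl is known as a mutation that stabilises the repressor. In the embryo its best known partner is MONOPTEROS, which acts in root and vascular initiation. Transcript of IAA12 itself was at 8.75, 8.90 and 8.79 on the log2 intensity scale in bdl 1, 2 and 3, against 7.38, 7.24, 7.08 and 7.17 in wild type 1 to 4. It was higher in bdl by 1.59 on the log2 scale (SE 0.17; limma, adjusted p = 0.00287).

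Median intensity was alike on all arrays, with a log2 median over all genes of 3.13 to 3.23 in bdl and 3.08 to 3.20 in wild type. Markers of the embryo had a mean log2 intensity of 6.78 to 6.84 in bdl and 7.22 to 7.36 in wild type. Of these markers 12 of 14 lay above the 25th percentile of all genes. That cut is low, at 1.85, and most seed coat and green tissue markers passed it too. Of the embryo markers, PLT1, BBM and ESR1 were called lower in bdl and FUS3 higher, by -1.86, -1.63, -1.99 and 1.02 on the log2 scale (limma, adjusted p = 0.00244, 0.00389, 0.00657 and 0.0451). The summed intensity of 13 endosperm markers, 10 of them below the 25th percentile, was 134 to 246 in bdl and 260 to 372 in wild type. Their sum rested mainly on SUC5, which averaged 7.14 in bdl and 8.07 in wild type and was not called (limma, adjusted p = 0.352). By mean log2 intensity the endosperm markers overlapped, at 2.15 to 2.44 in bdl and 2.34 to 2.51 in wild type. Sums overlapped between genotypes for 13 pollen markers (58.8 to 291 in bdl, 55.3 to 697 in wild type), of which 5 were below the 25th percentile. They also overlapped for 15 seed coat markers (123 to 465 in bdl, 255 to 688 in wild type), of which 2 were below that percentile. The same held for 10 green tissue markers (126 to 230 in bdl, 86.3 to 161 in wild type), of which 0 were below it. Of the green tissue markers, CAB1 was called higher by 2.05 (limma, adjusted p = 0.0281). The 16 stress and wounding markers, 6 of them below the 25th percentile, summed to 390 to 566 in bdl and 223 to 363 in wild type. Their mean log2 intensity did not overlap, at 3.16 to 3.23 in bdl and 2.84 to 2.94 in wild type. None of them passed by limma over all genes, while 6 had an unadjusted p under 0.05. The part of these marker lists in the levels of the 40 genes was not tested.

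The label of these genes, off in wild type and on in bdl, goes further than the arrays do. The wild-type threshold of 3.5 stands at the 53.9th percentile of all wild-type means, so it does not separate silent from weakly expressed genes. Wild-type means of the 40 genes ran from 1.66 to 3.45 on the log2 scale, with a median of 2.53. Only 3 of them lay below the 25th percentile of all genes (1.86), 28 lay between it and the median of all genes (3.15), and 9 lay at or above that median. No detection calls were used here, so the level at which signal exceeds background is unknown. In bdl the means ran from 5.51 to 7.94, with a median of 6.23, which is between the 74.7th and the 93.96th percentile of all bdl means. The genes were thus in the weaker part of the range in wild type, and in bdl 38 of them stood at or above the 75th percentile (5.53) and 3 at or above the 90th (7.21). The scatter of group means shows them as a cloud well off the diagonal.

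**Figure D1:**
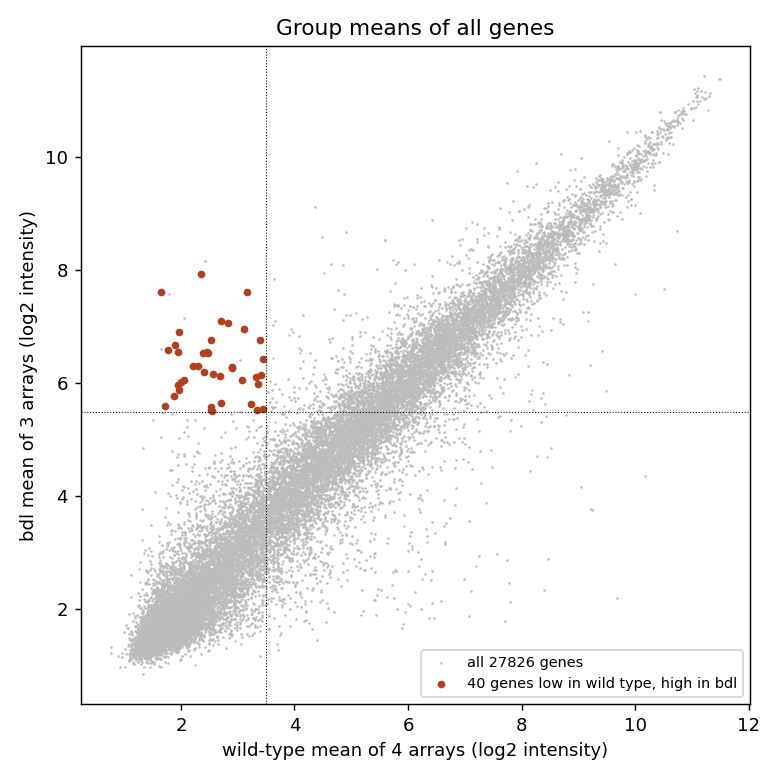
Mean log2 intensity of every gene in bdl (vertical axis, 3 arrays) against wild type (horizontal axis, 4 arrays), with dotted lines at the thresholds of 5.5 and 3.5. The 40 genes, in red, lie in the upper left field by construction, where the grey points are the 6 loci left out by name, with bdl means of 5.51 to 7.94 and wild-type means of 1.66 to 3.45.

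The log2 difference of the 40 genes ran from 2.1 to 5.97 with a median of 3.89, which is 4.29-fold to 62.7-fold with a median of 14.8-fold. Over all genes the median difference was -0.01. The difference was at least 4 in 18 genes, between 3 and 4 in 12, and under 3 in 10. In 39 of the 40, every bdl array lay above every wild-type array, where 5.71% of all genes were so separated, and the exception was CCB3. In the fit over all genes 36 of the 40 were called higher (limma, adjusted p under 0.05), where 0.902% of all genes were higher and 0.859% lower. MYB88, AT4G31680, CCB3 and AGL78 were not called. Nothing is read from these counts, because the same contrast chose the genes. The background count itself, 490 calls in either direction or 1.76%, was 281, 278 and 299 without bdl 1, 2 and 3.

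**Figure D2:**
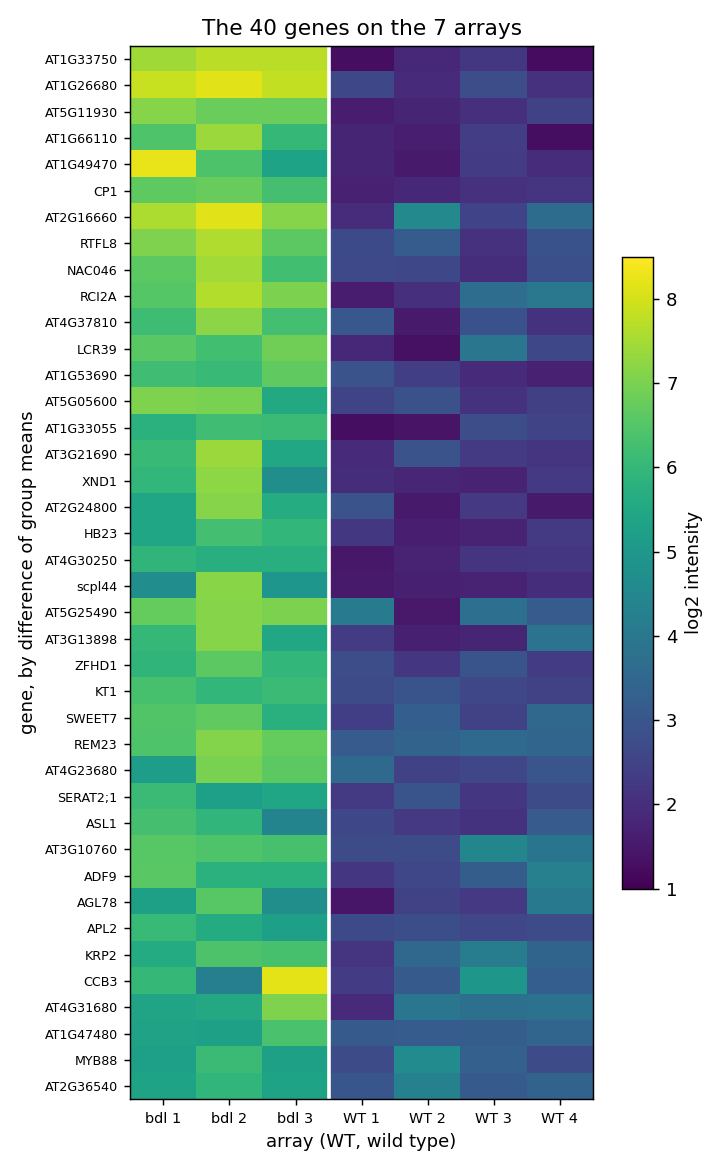
Log2 intensity (colour) of the 40 genes on each array, the bdl arrays to the left of the white line and the wild-type arrays to the right, with genes ordered by the difference of group means. Wild-type cells are dark in most rows, while CCB3 in wild type 3 (4.96), MYB88 in wild type 2 (4.62) and AT2G16660 in wild type 2 (4.52) are the brightest of them.

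The RefSeq gene table gives a name to 20 of the 40 genes, and 8 of these encode transcription factors. They span the NAC, zinc finger homeodomain, B3, LATERAL ORGAN BOUNDARIES, MADS and MYB families, with log2 differences of 2.19 to 4.24. NAC046, a NAC factor known from leaf senescence and chlorophyll breakdown, was at 6.60, 7.46 and 6.24 in bdl 1, 2 and 3, against 2.66, 2.64, 1.99 and 2.82 in wild type 1 to 4, a log2 difference of 4.24. All its wild-type arrays were close together and the bdl arrays lay far above them. XND1, a NAC factor that holds back xylem vessel differentiation, was at 5.96, 7.22 and 4.71 in the bdl arrays, against 1.98, 1.80, 1.76 and 2.26 in wild type. Its difference was 4.01. The wild-type arrays were tight, while the bdl arrays spread over more than 2 log2 units with bdl 2 on top.

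The zinc finger homeodomain genes HB23 and ZFHD1, also called ZHD10 and ZHD11, both met the rule. HB23 was at 5.40, 6.27 and 5.96 in bdl and at 2.21, 1.64, 1.73 and 2.26 in wild type, a log2 difference of 3.92. ZFHD1, known as a stress-responsive DNA-binding protein that works with NAC factors, was at 5.92, 6.60 and 5.97 in bdl and at 2.76, 2.19, 2.96 and 2.34 in wild type, a difference of 3.60. In each of them bdl 2 was the highest array and the groups stood more than 2.9 log2 units apart at their nearest points.

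REM23, a B3 domain gene of the reproductive meristem family, was at 6.43, 7.11 and 6.74 in bdl and at 3.16, 3.39, 3.57 and 3.45 in wild type, a log2 difference of 3.37. Its wild-type signal lay above the median of all genes, though its distance from background is unknown. ASL1 (LBD36), a LATERAL ORGAN BOUNDARIES domain gene, was at 6.28, 5.94 and 4.38 in bdl and at 2.62, 2.25, 2.11 and 3.15 in wild type, a difference of 3.0. Here bdl 3 was well below the other bdl arrays. AGL78, a MADS box gene, was at 5.27, 6.55 and 4.72 in bdl and at 1.44, 2.48, 2.25 and 4.04 in wild type, a difference of 2.96. The highest wild-type array and the lowest bdl array were less than 1 log2 unit apart. MYB88, the close relative of FLP that limits divisions at the end of the stomatal lineage, was at 5.23, 6.12 and 5.25 in bdl and at 2.73, 4.62, 3.30 and 2.72 in wild type. Its difference of 2.19 was the smallest among the named genes, and wild type 2 came close to the bdl arrays. FLP, looked up after the values of MYB88 were seen, averaged 3.96 in bdl and 3.54 in wild type, a log2 difference of 0.42 that did not pass (limma, SE 0.35, adjusted p = 0.762).

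Genes of small peptides, the cell cycle and the actin cytoskeleton formed the next group. RTFL8, a DEVIL/ROTUNDIFOLIA-like peptide gene of a family known to restrict organ elongation when overexpressed, was at 7.05, 7.62 and 6.62 in bdl and at 2.69, 3.17, 2.07 and 2.88 in wild type, a log2 difference of 4.39. It had the greatest difference in this group. LCR39, which encodes a low-molecular-weight cysteine-rich peptide, was at 6.57, 6.23 and 6.87 in bdl and at 1.87, 1.34, 3.95 and 2.64 in wild type, a difference of 4.10. The bdl arrays were close together and the wild-type arrays were not, with wild type 3 the highest. KRP2, an inhibitor of cyclin-dependent kinases, was at 5.61, 6.41 and 6.32 in bdl and at 2.17, 3.51, 4.16 and 3.42 in wild type, a difference of 2.80. Its wild-type mean of 3.32 lay above the median of all genes. ADF9, of the actin depolymerizing factor family, was at 6.59, 5.80 and 5.76 in bdl and at 2.20, 2.60, 3.21 and 4.27 in wild type, a difference of 2.98. ADF9 and KRP2 had no overlap between groups although their wild-type arrays spread over about 2 log2 units.

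The named proteases were CP1 and scpl44. CP1, a papain-like cysteine proteinase also listed as RD21A-LIKE PROTEASE1, was at 6.63, 6.75 and 6.30 in bdl and at 1.70, 1.86, 2.07 and 2.16 in wild type, a log2 difference of 4.61. This was the greatest difference among the 20 named genes, and both groups were tight (SD 0.23 over 3 bdl arrays and 0.21 over 4 wild-type arrays). The serine carboxypeptidase-like gene scpl44 was at 4.68, 7.17 and 4.93 in bdl and at 1.54, 1.66, 1.71 and 1.99 in wild type, a difference of 3.87. Its bdl mean rested on bdl 2, and without that array it no longer reached the bdl threshold.

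Membrane proteins came next. RCI2A, a small membrane protein induced by cold and salt, was at 6.53, 7.65 and 7.01 in bdl and at 1.60, 2.02, 3.67 and 4.01 in wild type, a log2 difference of 4.24. It had the widest wild-type spread of the 40 genes (SD 1.19, n = 4). KT1 (AKT1), the inward-rectifying potassium channel best known from root uptake, was at 6.31, 5.97 and 6.12 in bdl and at 2.72, 2.94, 2.59 and 2.48 in wild type, a difference of 3.45. SWEET7, a sugar transporter gene, was at 6.45, 6.67 and 5.76 in bdl and at 2.38, 3.24, 2.48 and 3.53 in wild type, a difference of 3.39. KT1 was tight in both genotypes (SD 0.17, n = 3 in bdl and 0.20, n = 4 in wild type), and SWEET7 had wider groups that did not meet.

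The metabolic and plastid genes had the lowest median difference of the named groups, 2.94, with a range of 2.73 to 3.05. SERAT2;1, a serine acetyltransferase of cysteine synthesis, was at 6.10, 5.22 and 5.41 in bdl and at 2.27, 2.94, 2.18 and 2.72 in wild type, a log2 difference of 3.05. APL2, a large subunit of the starch synthesis enzyme ADP-glucose pyrophosphorylase, was at 6.06, 5.62 and 5.24 in bdl and at 2.68, 2.81, 2.59 and 2.74 in wild type, a difference of 2.94. APL2 had the tightest wild-type arrays of the set (SD 0.09, n = 4). CCB3, a plastid protein of cytochrome b6f cofactor assembly, was at 6.0, 4.25 and 8.18 in bdl and at 2.33, 3.12, 4.96 and 3.25 in wild type. Its difference of 2.73 came with the widest bdl spread of the set (SD 1.97, n = 3), and bdl 2 lay below wild type 3.

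**Figure D3:**
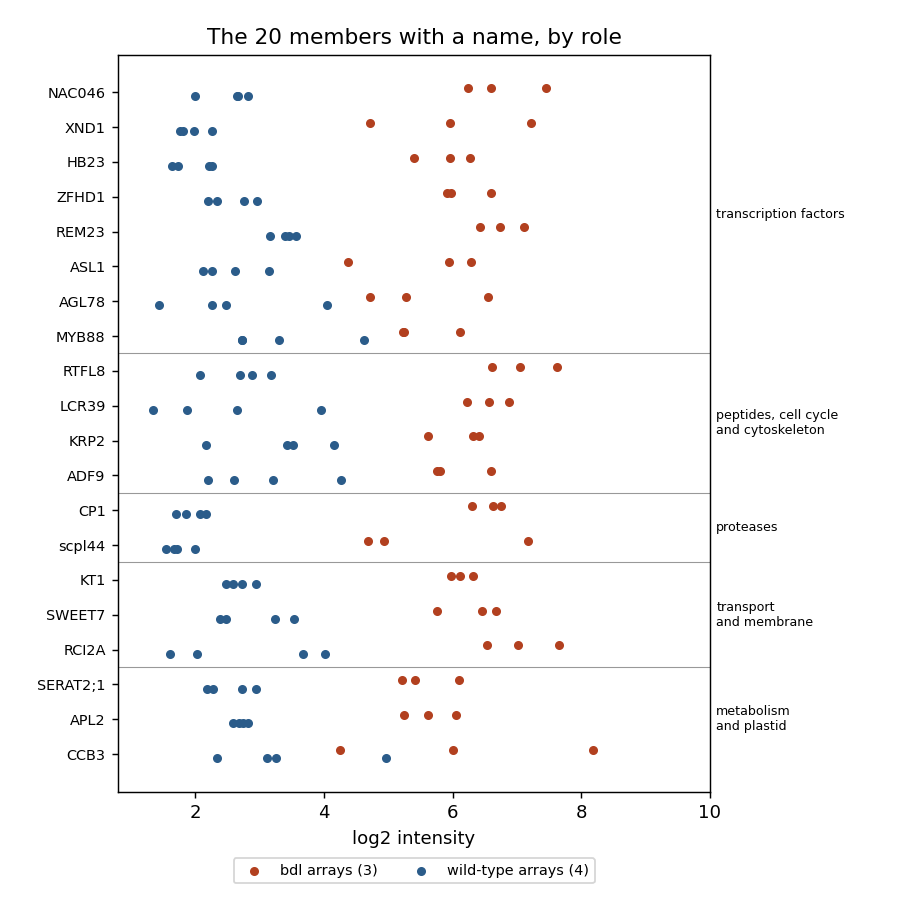
Log2 intensity of the 20 named genes on each bdl array (red points) and each wild-type array (blue points), grouped by role. Red and blue points are apart in every row except CCB3, where bdl 2 at 4.25 lies below wild type 3 at 4.96.

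The other 20 genes carry no symbol in the gene table and are given by locus. They include the 5 greatest differences of the set, and 11 of the 16 greatest. AT1G33750 was at 7.44, 7.72 and 7.72 in bdl and at 1.29, 1.87, 2.21 and 1.26 in wild type, a log2 difference of 5.97 or 62.7-fold. AT1G26680 was at 7.86, 8.15 and 7.80 in bdl and at 2.64, 1.92, 2.76 and 2.08 in wild type, a difference of 5.59. It had the highest bdl mean of the set, 7.94. AT5G11930 was at 7.15, 6.78 and 6.79 in bdl and at 1.56, 1.78, 2.04 and 2.49 in wild type, a difference of 4.94. In these loci the bdl arrays agreed to within 0.4 log2 units, and the wild-type arrays were lower by more than 4.

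Spread among the bdl arrays was wider in the next loci. AT1G66110 was at 6.43, 7.36 and 5.99 in bdl and at 1.78, 1.63, 2.37 and 1.28 in wild type, a log2 difference of 4.83. AT1G49470 was at 8.26, 6.40 and 5.36 in bdl and at 1.78, 1.55, 2.34 and 1.94 in wild type, a difference of 4.77. The bdl arrays of AT1G49470 differed by close to 3 log2 units, with bdl 1 the highest. AT2G16660 was at 7.59, 8.15 and 7.14 in bdl and at 1.96, 4.52, 2.52 and 3.65 in wild type, a difference of 4.47. Wild type 2 was more than 2.5 log2 units above wild type 1, so the wild-type mean of 3.16 stands for unequal arrays.

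The remaining loci of the 16 greatest differences lay between 4.01 and 4.15. AT4G37810 was at 6.18, 7.20 and 6.25 in bdl and at 3.05, 1.54, 2.89 and 2.11 in wild type (4.15). AT1G53690 was at 6.19, 6.09 and 6.67 in bdl and at 2.92, 2.40, 1.89 and 1.68 in wild type (4.09). Neither came near to an overlap of groups. AT5G05600 was at 7.06, 7.0 and 5.57 in bdl and at 2.53, 2.86, 2.09 and 2.42 in wild type (4.07). AT1G33055 was at 5.78, 6.20 and 6.11 in bdl and at 1.28, 1.39, 2.78 and 2.53 in wild type (4.03). In AT1G33055 wild type 1 and 2 lay below the 25th percentile of all wild-type means while wild type 3 and 4 lay above it. AT3G21690 was at 6.04, 7.38 and 5.51 in bdl and at 1.91, 2.91, 2.26 and 2.12 in wild type (4.01).

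The last 9 loci had log2 differences of 2.1 to 4.00. Their values ran from 5.20 to 7.15 over single bdl arrays and from 1.48 to 4.43 over single wild-type arrays. They were AT2G24800 (4.00), AT4G30250 (3.90), AT5G25490 (3.85), AT3G13898 (3.80), AT4G23680 (3.37), AT3G10760 (2.98), AT4G31680 (2.63), AT1G47480 (2.41) and AT2G36540 (2.1). AT4G30250 had some of the tightest bdl arrays of the set, at 5.92, 5.69 and 5.72 (SD 0.12), against 1.48, 1.71, 2.14 and 2.18 in wild type.

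Genes near the thresholds show how far the set depends on where they stand. Just inside the bdl threshold were AGL78, MYB88, ASL1 and AT2G36540, with bdl means of 5.51 to 5.55, and just outside were PDLP3, AT4G31640, AT5G63240 and AT1G19960, with 5.45 to 5.48. AT4G31640 and AT1G19960 had log2 differences of 3.78 and 3.62, greater than those of many members. Just inside the wild-type threshold were AT2G36540, AT3G10760, CCB3 and REM23, with wild-type means of 3.39 to 3.45. Just outside it were NIMIN-2, NUDX13, AT1G80450 and AT1G30540, with 3.53 to 3.58. Thus 25 of the 40 genes met the rule in each of the 7 omissions of an array, and between 33 and 39 did so in any given omission.

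Among the bdl arrays the set was uneven. The highest bdl value was in bdl 2 for 24 of the 40 genes (60.0%), in bdl 1 for 10 (25.0%) and in bdl 3 for 6 (15.0%). Over all 6979 nuclear genes with a bdl mean of at least 5.5, these shares were 32.7%, 33.2% and 34.1%. The median of the 40 genes was 6.18, 6.63 and 6.11 in bdl 1, 2 and 3, while the median of all genes was 3.15, 3.23 and 3.13. In XND1, scpl44, AGL78, AT2G24800, AT3G21690 and AT3G13898, bdl 2 exceeded both other bdl arrays by more than 1 log2 unit. The summed pollen markers were also highest in bdl 2, at 291 against 71.4 in bdl 1 and 58.8 in bdl 3, as were the green tissue markers (230, 187 and 126 in bdl 2, 1 and 3) and the seed coat markers (465, 409 and 123). The other lists did not peak in bdl 2. Endosperm markers were lowest there (246, 134 and 246 in bdl 1, 2 and 3). Stress and wounding markers (390, 491 and 566) and embryo markers (4043, 4270 and 4369) were highest in bdl 3. Pollen sums were 55.3, 310, 73.1 and 697 in wild type 1 to 4. The part of these markers in the uneven bdl arrays was not tested. Without bdl 2, 34 of the 40 genes still met the rule, and the 6 that did not were scpl44, MYB88, AT2G36540, XND1, AGL78 and ASL1.

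**Figure D4:**
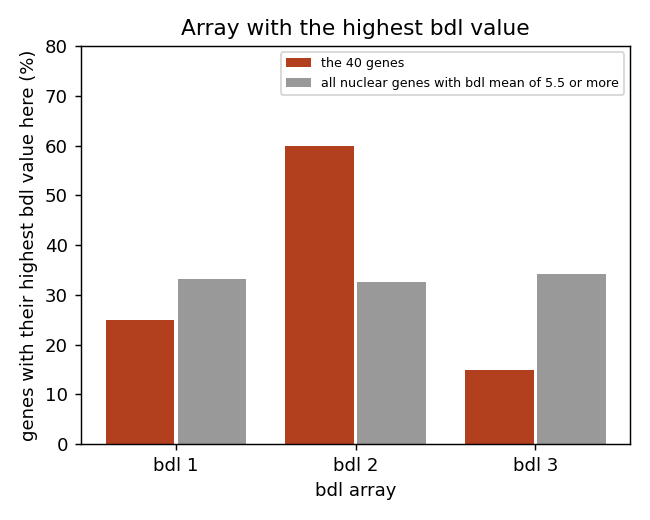
Percentage of genes whose highest bdl value fell on each bdl array, for the 40 genes (red bars) and for all 6979 nuclear genes with a bdl mean of at least 5.5 (grey bars). The 40 genes peak in bdl 2 in 60.0% of cases, while the grey bars lie between 32.7% and 34.1%.

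The wild-type arrays also differed within the set. Of the 40 genes, 24 stayed at or below 3.5 in all 4 wild-type arrays, and 16 exceeded it in at least 1. Wild type 4 was the highest wild-type array for 14 genes, wild type 3 for 11, wild type 2 for 10 and wild type 1 for 5. The median SD over the arrays of a group was 0.49 in bdl and 0.47 in wild type. For comparison, it was 0.25 over the bdl arrays of all nuclear genes with a bdl mean of at least 5.5, and 0.31 over the wild-type arrays of the 15008 nuclear genes with a wild-type mean of at most 3.5. These larger sets share a threshold with the 40 genes but were not matched to them in level, so the spreads are not directly comparable.

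Relatives of the named genes were examined next, since they were not picked for a difference and can be tested. Genes that met the rule and loci left out by name were removed from them. In 13 families of at most 60 loci, joined by the terpene synthase, papain-like protease and developmental cell death lists, 213 genes outside the set were measured. The terpene synthase and cell death lists hold no named member, and 197 of the 213 belong to a family or list that does. Families and lists were matched by name, so the 20 genes given by locus could not be placed in any. Whether some of them belong to these families or lists is unknown here. Of the 213, 5 were higher in bdl, 1 was lower and 207 did not pass (limma over all genes, adjusted p under 0.05). That is 2.35% called higher, where 0.902% of all genes were, and their median log2 difference was -0.03. This share leaves out the NAC, LCR, AGAMOUS-like and MYB families of over 60 loci, with 0, 0, 0 and 2 relatives called higher. Without the 2 lists that hold no named member, 2.54% of 197 were called higher and the median was also -0.03. Medians of single families ran from -0.19 to 0.41, and no family was tested as a whole. In the zinc finger homeodomain family, where HB23 and ZFHD1 differed by 3.92 and 3.60, none of 12 relatives passed by limma and an unadjusted p under 0.05 was found for 5. HB32, with the lowest p, averaged 5.28 in bdl and 3.83 in wild type (log2 difference 1.45, SE 0.32, adjusted p = 0.083).

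The LATERAL ORGAN BOUNDARIES family held 3 of the 6 called relatives among these 213. LBD13 was at 5.54, 5.39 and 5.12 in bdl and at 1.82, 1.31, 1.47 and 1.44 in wild type, so it rose by 3.84 (limma, SE 0.20, adjusted p = 0.000109). LBD42 was at 6.74, 7.49 and 7.08 in bdl and at 3.74, 2.88, 4.16 and 3.81 in wild type, and rose by 3.45 (SE 0.33, adjusted p = 0.00191). LBD13 missed the bdl threshold and LBD42 the wild-type threshold of the set. ASL9 went the other way, at 1.15, 1.28 and 1.39 in bdl against 4.37, 2.87, 3.99 and 3.62 in wild type, lower by a log2 value of -2.44 (SE 0.34, adjusted p = 0.0115). The call of ASL9 was lost without bdl 1 or bdl 2 (-2.38 and -2.44; adjusted p = 0.0584 and 0.0558). The other 36 relatives of this family did not pass, and the median of its 39 relatives was -0.05.

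Beside KRP2, the inhibitor gene ICK5 (KRP7) was called. ICK5 was at 5.35, 5.07 and 5.64 in bdl and at 2.98, 2.85, 3.97 and 3.26 in wild type, a log2 value higher by 2.09 (limma, SE 0.30, adjusted p = 0.0137). Its call was lost without bdl 1 or bdl 3 (2.09 and 1.94; adjusted p = 0.0613 and 0.0648). The other 4 relatives did not pass. Among 50 serine carboxypeptidase-like relatives of scpl44, scpl25 was called at 1.25 (SE 0.20, adjusted p = 0.0203), at 8.67, 8.97 and 8.35 in bdl and 7.39, 7.46, 7.44 and 7.36 in wild type. That call held only without bdl 3, and in the other 6 omissions the adjusted p was 0.055 to 0.0845 with differences of 1.10 to 1.27. Of 12 papain-like relatives of CP1, the vacuolar protease gene RD19 was called at 1.52 (SE 0.29, adjusted p = 0.0467). RD19 averaged 6.54 in bdl and 5.02 in wild type, and it was called in none of the 7 omissions (1.33 to 1.75, adjusted p = 0.0585 to 0.167).

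In the other families of at most 60 loci none of the relatives passed by limma. For 23 relatives of RTFL8 the median log2 difference was -0.16, for 16 relatives of SWEET7 it was 0.13, for 10 of ADF9 0.03 and for 8 of KT1 0.05, with 1, 3, 0 and 0 at an unadjusted p under 0.05. The relatives with the lowest p were RTFL3 (-0.95, adjusted p = 0.338), SWEET12 (0.73, 0.247), ADF4 (0.47, 0.703) and KAT3 (0.84, 0.695), by limma. For 4 relatives of SERAT2;1 the median was -0.07 and for 4 of APL2 it was 0.27, with 0 and 1 at an unadjusted p under 0.05, and ATSERAT3;1 had the lowest p beside SERAT2;1 (0.50, adjusted p = 0.57). The small subunit gene ADG1, which pairs with APL2 in the same enzyme, averaged 8.65 in bdl and 7.88 in wild type (0.77, SE 0.18, adjusted p = 0.106). For 7 relatives of REM23 the median was -0.19 and for 6 of CCB3 it was 0.41, with 0 and 2 at an unadjusted p under 0.05. The relatives of REM23 are only those found by symbol or synonym, so B3 genes without such a name are not counted. All 6 relatives of CCB3 had differences above 0, from 0.09 to 1.80. AT4G31620 (-0.86, adjusted p = 0.664) and HCF208 (0.73, adjusted p = 0.164) had the lowest p of these families. RCI2B, the only other gene entered as RCI2 and the direct neighbour of RCI2A, averaged 1.85 in bdl and 1.52 in wild type, where RCI2A averaged 7.06 and 2.82. Its difference was 0.33 (SE 0.39, adjusted p = 0.845). The 10 terpene synthases had a median of -0.09 and the 10 developmental cell death genes one of 0.12, with none at an unadjusted p under 0.05. TPS02 (-0.42, adjusted p = 0.548) and CEP1 (-0.52, adjusted p = 0.594) had the lowest p there. The 20 salicylic acid and defence genes had a median of 0.07, with none called and 2 at an unadjusted p under 0.05. NPR3 had the smallest p (0.89, SE 0.28, limma, adjusted p = 0.244). These 20 remained of 23 listed genes, 21 of them measured, after a locus left out by name was removed. NIMIN-2, planned for this list, is not among the 20. It averaged 5.84 in bdl and 3.53 in wild type, a difference of 2.31. The NAC, LCR, AGAMOUS-like and MYB families hold more than 60 loci each and were left out of the relatives counted above. Of their 97, 83, 97 and 124 relatives, 0, 0, 0 and 2 were called higher and 2, 0, 0 and 1 lower. Their median log2 differences were 0.04, -0.09, -0.08 and -0.02.

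**Figure D5:**
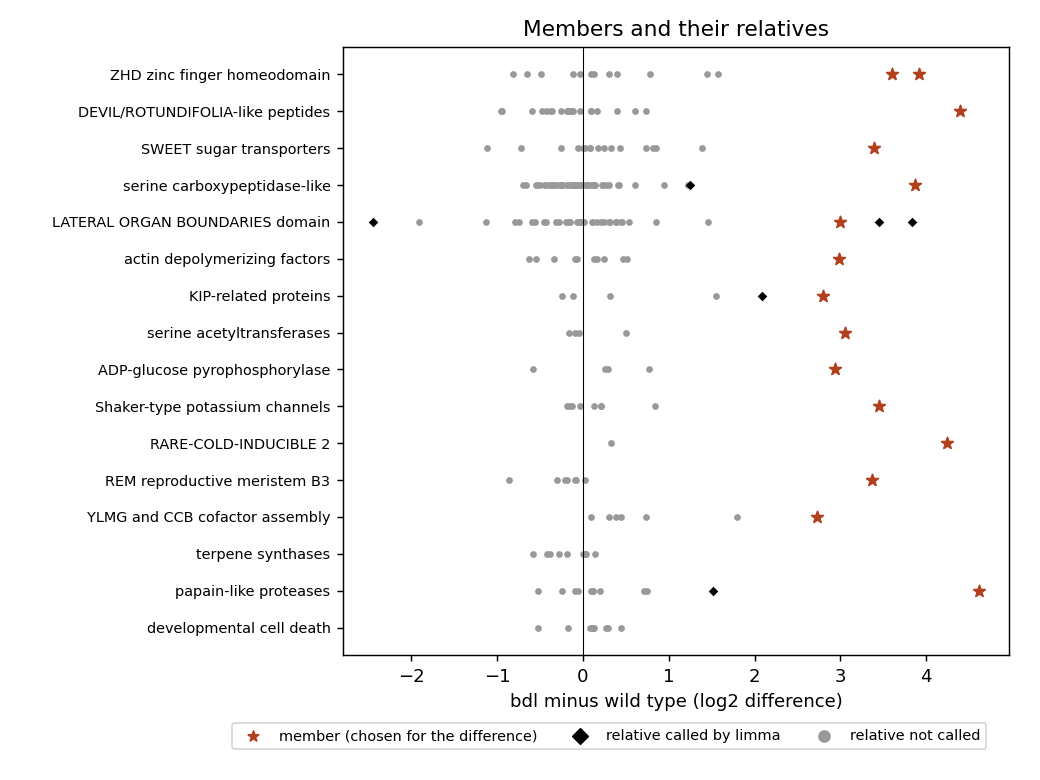
Log2 difference, bdl minus wild type, of each measured relative (grey circles, or black diamonds where limma called it) and of the members chosen for their difference (red stars), by family or list. Most relatives lie close to 0, while LBD13 at 3.84 and LBD42 at 3.45 lie among the red stars and ICK5 at 2.09 lies below them.

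The 40 genes were spread over the genome, with 11 on chromosome 1, 7 each on chromosomes 2, 3 and 4, and 8 on chromosome 5. None was the direct neighbour of another in locus order. Of their 80 direct neighbours on the array, 3 were called higher, 0 lower, and 77 did not pass by limma. An unadjusted p under 0.05 was found for 10 of the 80. That is 3.75% called higher, where 0.902% of all genes were, and the median log2 difference of the neighbours was 0.11.

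ZFHD1 had called neighbours on both sides. CLE45, a CLE peptide gene, was at 3.49, 4.09 and 4.38 in bdl and at 2.59, 1.53, 1.96 and 2.06 in wild type, a log2 value higher by 1.95 (limma, SE 0.31, adjusted p = 0.0208). AT1G69610 was at 6.22, 6.46 and 6.66 in bdl and at 4.31, 4.80, 4.31 and 5.13 in wild type, a difference of 1.81 (SE 0.26, adjusted p = 0.0129). The third called neighbour, AT5G05598 beside AT5G05600, was at 4.42, 3.67 and 4.42 in bdl and at 2.61, 1.26, 2.47 and 1.84 in wild type, a difference of 2.12 (SE 0.37, adjusted p = 0.0308). All 3 calls were lost without bdl 2 or bdl 3, with adjusted p of 0.0552 to 0.0897 and 0.0626 to 0.117. CLE45 was also lost without wild type 2, 3 or 4 (0.0508, 0.0652 and 0.0566), and AT5G05598 without wild type 3 or 4 or bdl 1 (0.0556, 0.084 and 0.13). Over the 7 omissions the differences were 1.76 to 2.20 for CLE45, 1.70 to 1.98 for AT1G69610 and 1.86 to 2.37 for AT5G05598.

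Against its mirror image the set was somewhat smaller. With the thresholds turned round, 57 nuclear genes had a wild-type mean of at least 5.5 and a bdl mean of at most 3.5, where 46 met the rule in this direction before any locus was left out. The mirror genes are a full set, while the 40 genes lack the 6 loci left out by name, so the values that follow compare unlike sets. The median log2 difference of the mirror genes was -3.67, beside 3.89 for the 40 genes, and their greatest was -7.49, beside 5.97. The median SD of the mirror genes was 0.47 over bdl arrays and 0.45 over wild-type arrays, near the 0.49 and 0.47 of the 40 genes. No test of the difference in number was made.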

How the data were processed

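The deposited table holds one intensity per probe set and array. No source states its scale; it was taken as linear because the values look like antilogs of RMA values, and every log2 value here rests on that. RMA is named per the submitters' processing notes, without version. Its chip definition and any build remained not given in the sources used here. From there, the authors' intensity values were turned to log2 with no pseudocount and no further scaling. The fit had 1 term, genotype, and used lmFit and eBayes of limma 3.58.1 (R 4.3.3). Its p-values were 2-sided and adjusted by Benjamini-Hochberg across 27826 probe sets. The procedure was tested on simulated data. Names came from a RefSeq table of assembly TAIR10.1, which holds 27241 of the loci.

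The members, lists and tests were chosen with earlier results of these data known. Relatives were to be found by product text, which the table lacks, so symbol and synonym stems were used, set after the table was seen. Values on all arrays are given for the 16 greatest differences and for all members with a symbol, and in each counted family or list every called gene is named, or the one with the smallest p. Called genes of the families over 60 loci are given as counts and not named. The number of arrays limits the precision.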

Additional observations from a re-analysis of the deposited data

Results flagged for a closer look

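In the check of the 4 wild-type arrays for values that stand apart, 1 of 69 genes and lists did, where chance alone gives about 1 in 20. Wild type 1 gave AT4G31680 a log2 intensity of 1.88, while wild type 2, 3 and 4 lay between 3.78 and 3.95. Without wild type 1 it no longer meets the wild-type threshold of the set. With 3 arrays, bdl was not checked in this way.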

How the results depend on the processing

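The 40 genes became 39 with array medians centred or quantile normalization and 41 with cyclic loess (37 shared). With log2(value + 4) they became 29, which shared 26 and lost 14, REM23, RCI2A, KRP2 and SWEET7 among them. The mirror rule's 57 became 41 with log2(value + 4) and 68 with cyclic loess. Between 36 and 47 genes met the rule when an array was left out. Stricter thresholds of 6 and 3 left 21, looser ones of 5 and 4 gave 127, and 15 had every array past its threshold. For the mirror rule, with no locus left out by name, these were 27, 147 and 23, with 58 to 65 over the omissions. Over the omissions 278 to 374 genes were called, with 28 to 35 of the members, 2 to 5 of the relatives, 0 to 3 of the neighbours and 0 of the other lists, of which RD19 was called in the reported fit. Deviations of same-numbered arrays correlated at 0.036 to 0.047, within the range of -0.079 to 0.105 for differently numbered arrays. These correlations cannot show whether same-numbered arrays were handled together, and the reported fit treated them as unpaired. With replicate number as a block 188 genes were called, with 27 members, 3 relatives, 1 neighbour and 0 of the other lists. Cyclic loess and array weights left 0 of the other lists called, and only genes above the 50th percentile gave 1 neighbour. The 31 members given by array were chosen for a large positive difference, so nothing is read from their signs, none of which changed. Of their 341 values, 22 moved by 1 SD or more, all with a pseudocount of 4. Adding it brought ADG1 to 0.76 (limma, adjusted p = 0.0391). Promoter motifs were not analysed here. No detection calls were used, so weak signals have unknown distance from background.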
